A study of Drosophila melanogaster with 2 samples.

Results

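Peaks of a Ptx1 fusion protein whose only nearby annotated starts belong to noncoding RNA genes numbered 253 of the 6824 conservative peaks on the named chromosome arms (6840 peaks in the whole list). That list, from both replicates, is the one the authors named conservative after an analysis of the irreproducible discovery rate (IDR), which scores how well peaks repeat between replicates. A peak was taken when its summit lay within 1000 bp of the start of a noncoding RNA transcript and more than 1000 bp from every protein-coding start. The class of the nearest RNA start put 214 of them at genes annotated as ncRNA (202 named lncRNA, 11 named asRNA and 1 that the annotation calls ncRNA but names as a snoRNA, Or-ACA9), 15 at tRNA genes, 14 at microRNA hairpins, 5 at snRNA genes and 5 at snoRNA genes. No peak lay at an rRNA gene. The peaks came from chromatin immunoprecipitation and sequencing of whole Drosophila melanogaster embryos aged 0 to 24 h, from a transgenic strain that expresses Ptx1 fused to eGFP; the labels name no driving promoter. Both libraries were biological replicates of this single group, and no control sample was analysed here. The chromatin had been sonicated, with a size range of 200 to 800 bp, and the tissue was the whole organism, so cell types cannot be told apart. The labels describe the precipitating antibody as one against GFP, while their antibody field names Ptx1. Coordinates are 1-based on dm6, and read depth is unknown because peak lists carry none.

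Ptx1 is a homeodomain protein of the paired-like class, the fly relative of the vertebrate Pitx factors, and proteins of this class recognise the core TAATCC in other settings. The RNA classes differ in how they are transcribed. Long noncoding RNAs and most microRNA precursors are made by RNA polymerase II, tRNA genes by RNA polymerase III from elements inside the gene, and small nuclear RNA genes from a short upstream element, the proximal sequence element. A microRNA hairpin is cut out of a longer primary transcript, so the annotated hairpin end is not a transcription start, and the same holds for snoRNAs processed from introns.

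The snRNA genes are shown first because a promoter element of known position can be set beside their peaks. The stretch from 75 to 26 bp upstream of the annotated start is printed for the 5 snRNA genes with a peak, 5′ to 3′ on the strand of the gene, from the RefSeq sequence of release 6. They lie at chr3R:23859656-23859705, chr3R:24557140-24557189, chr3R:7475022-7475071, chr3L:3090726-3090775 and chr2L:21215204-21215253, in the order printed. Capitals mark TTCCCAA, which is part of the proximal sequence element. In snRNA:U6:96Ac they mark TTCTCAA instead, chosen after the sequence was seen.
snRNA:U1:95Ca: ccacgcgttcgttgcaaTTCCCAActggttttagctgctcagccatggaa
snRNA:U6:96Ac: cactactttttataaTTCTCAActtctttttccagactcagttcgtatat
snRNA:7SKa: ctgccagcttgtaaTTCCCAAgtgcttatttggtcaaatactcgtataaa
snRNA:U5:63BC: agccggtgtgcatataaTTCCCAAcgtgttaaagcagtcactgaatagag
snRNA:U4:39B: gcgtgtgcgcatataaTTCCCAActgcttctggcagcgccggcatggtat
The word TTCCCAA was present on the gene's strand in the 100 bp upstream of 26 of 32 snRNA genes (81.2%), against 121 of 13968 coding genes (0.866%). It was in 4 of the 5 genes with a peak, starting 58 bp upstream in U1:95Ca and U5:63BC, 59 bp in U4:39B and 61 bp in 7SKa. The deposited peak covered the whole word at U1:95Ca and U4:39B and did not reach it at 7SKa and U5:63BC.

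Sequence at the summits is shown for 6 peaks that carry the results on long RNAs and microRNAs, from 50 bp before to 50 bp after the summit on the strand of the RNA. CR45643 and CR44619 had the highest scores, CR31044 and CR43334 span microRNA hairpins, and CR44331 and CR45539 hold TAATCC near the summit. The windows are chr3R:16222433-16222533, chrX:12751343-12751443, chr3R:29214401-29214501, chr3L:627893-627993, chr3R:8114026-8114126 and chrX:9120929-9121029. Capitals mark any of the 13 words searched, on either strand, and adjoining capitals can be overlapping matches.
CR45643: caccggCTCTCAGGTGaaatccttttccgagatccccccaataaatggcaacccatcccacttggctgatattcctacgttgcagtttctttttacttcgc
CR44619: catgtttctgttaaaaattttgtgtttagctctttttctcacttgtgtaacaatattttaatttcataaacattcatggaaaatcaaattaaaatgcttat
CR31044: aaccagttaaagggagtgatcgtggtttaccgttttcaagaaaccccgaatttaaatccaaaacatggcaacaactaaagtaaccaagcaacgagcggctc
CR43334: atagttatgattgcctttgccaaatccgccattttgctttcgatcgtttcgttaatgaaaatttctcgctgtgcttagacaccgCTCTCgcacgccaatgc
CR44331: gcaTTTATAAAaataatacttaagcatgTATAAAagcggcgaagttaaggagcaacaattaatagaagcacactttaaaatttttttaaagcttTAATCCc
CR45539: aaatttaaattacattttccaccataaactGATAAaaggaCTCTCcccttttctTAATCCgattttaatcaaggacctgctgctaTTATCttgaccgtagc
The windows of CR44619 and CR31044 hold none of the words. The CR45643 window joins CTCTC with CAGGTG, and neither it nor the CR43334 window holds TAATCC.

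The peaks at RNA starts were about as strong as the list as a whole. Each deposited peak has a strength score, the authors' own value with no stated unit, which is used here only to describe and rank peaks within a list. The median score was 131 for the 253 peaks and 129 for all 6824, while peaks within 1000 bp of a coding start (3245 peaks) had a median of 150 and peaks far from every start (3326 peaks) one of 115. A score above the list median was held by 130 (51.4%, exact Clopper-Pearson 95% interval 45.0 to 57.7). The peaks in the top 25.0% of the whole list by score took in 64 of the 253 (25.3%). Of those 64, 63 were at ncRNA genes and 1 at a microRNA hairpin. By class the median was 135 for ncRNA, 84.3 for tRNA, 139 for snRNA, 131 for snoRNA and 117 for hairpins, and the ranges of all 5 classes overlapped.

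**Figure D1:**
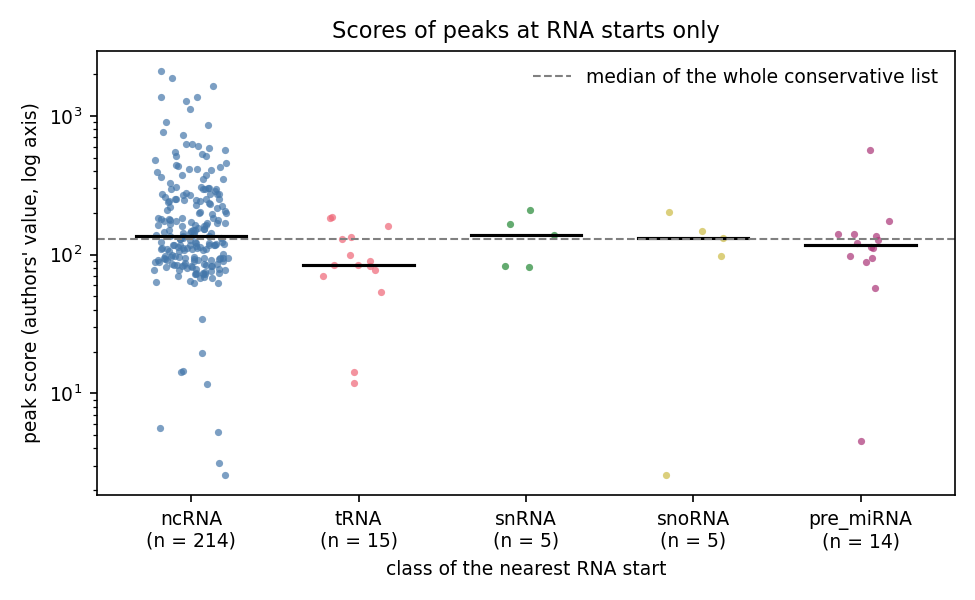
Score of each of the 253 peaks (authors' value, log axis) by class of the nearest RNA start, with 1 point per peak and a black bar at each class median. The dashed line is the median of the whole list (129), and the highest points, up to 2103, all belong to the ncRNA class.

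Support by single replicates was close to that of the list as a whole. A summit within 100 bp was present in both replicates' own thresholded lists for 135 of the 253 (53.4%, interval 47.0 to 59.6), against 56.5% of all peaks. Another 36 had one in replicate 1 alone, 28 in replicate 2 alone, and 54 in neither. Among the tRNA peaks 4 of 15 were in both lists (26.7%, interval 7.79 to 55.1), and among the hairpin peaks 6 of 14 (42.9%, interval 17.7 to 71.1). Each replicate also had a longer ranked list, in which 228 of the 253 peaks had a summit within 100 bp in both. Across those 228, replicate 1 had the higher score in 181, and the log2 ratio of replicate 1 to replicate 2 had a median of 0.30 (SD over peaks 0.41), against 0.32 over all peaks. The IDR step that made the list selects peaks on agreement of the replicates, so this agreement is partly built in, and the intervals here cover counting of peaks only.

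**Figure D2:**
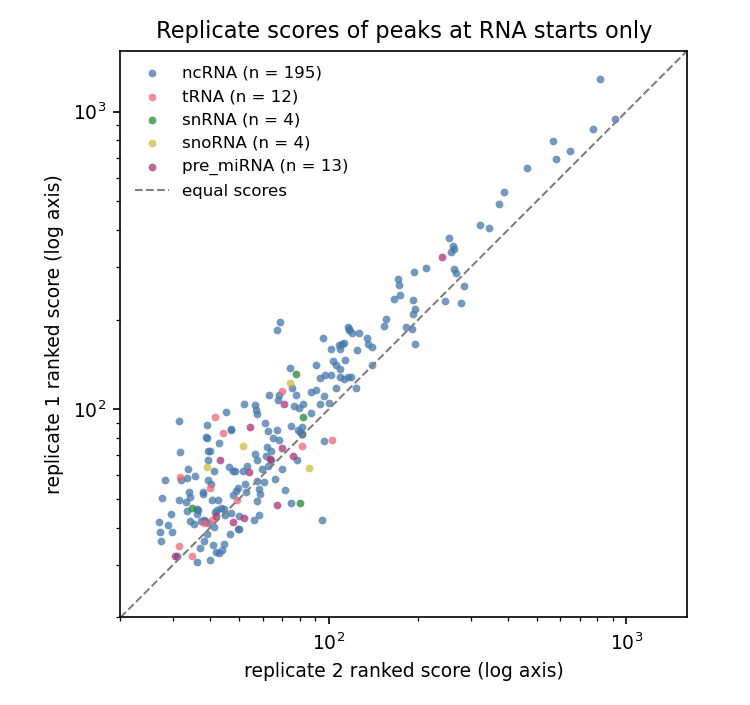
Replicate 1 against replicate 2 ranked-list score (both log axes) for the 228 peaks with a summit within 100 bp in both lists, coloured by class. Most points lie above the dashed line of equal scores, and replicate 1 was higher at 181 of them.

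The strongest peaks lay at long noncoding RNAs known by number, several of them in introns of coding genes. The top one was upstream of CR45643 (FBgn0267203) on 3R, at 16222305 to 16222679, and scored 2103, rank 20 of all 6824 peaks. Its ranked scores were 1284 in replicate 1 and 817 in replicate 2. Its summit lay 912 bp upstream of the RNA start and 3168 bp from the nearest coding start, that of tara, a gene of the trithorax group. CR44619 on X had peaks on both sides of its start. One of score 1865 lay 474 bp upstream (945 and 914 in replicates 1 and 2), and the other, of score 1272, lay 498 bp downstream (691 and 581). The upstream summit, outside the CR44619 gene, lay in an exon of another annotated RNA gene. The replicate scores were nearly equal at this upstream peak and replicate 1 was higher at CR45643.

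The third RNA in order of score was CR44339 (score 1635, replicates 871 and 770), 160 bp downstream of its summit and 4213 bp from the start of the Polycomb group gene Psc. An intron of osa, which encodes a subunit of the Brahma chromatin remodelling complex, held peaks at CR46035 (1376, replicates 737 and 648) and CR46036 (1360, replicates 798 and 569). An intron of CHES-1-like, a forkhead gene, held the peak at CR43287 (904, replicates 538 and 389). The peak at CR44810 (853, replicates 490 and 373) lay 4535 bp from the start of slbo, a C/EBP gene of border cell migration. An intron of mbl, a splicing regulator, held the peak at CR45997 (759, replicates 407 and 346). In all 10 of the highest ncRNA peaks both replicates' own lists held a summit within 100 bp, against 119 of all 214 ncRNA peaks (55.6%). The 10 were picked by score from a list selected on replicate agreement, so this is partly built in. Of the 10, 4 lay in introns of coding genes, against 61 of the 214 (28.5%). Upstream of the nearest RNA transcript start lay 7, against 108 of the 214 (50.5%). That start can be internal to the gene, and the CR44810 summit, upstream of its nearest start, lay inside the CR44810 gene. The nearest coding gene is given as a place, and whether the peaks bear on it was not tested.

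The antisense RNAs, named asRNA within the ncRNA class, are described apart from those named lncRNA. All 11 asRNA peaks lay upstream of the RNA start, at 108 to 851 bp, against 96 of the 202 peaks at RNAs named lncRNA. Summits within 1000 bp of a coding start were left out, and those at CR45134, CR45999 and CR44512 lay 1041, 1069 and 1125 bp from one. Whether this exclusion bears on the side was not tested. The 11 peaks had a median score of 235, and 6 of the 11 were in the top 25.0% of the list. That share was 54.5%, with an interval of 23.4 to 83.3 that includes 25.0%. The highest were at CR45804 in an intron of Prps (score 484, replicates 288 and 193) and at CR45281 near Alp6 (438, replicates 261 and 173). CR45999 followed (427, replicates 232 and 193), then CR44512 in an intron of Zw, the glucose-6-phosphate dehydrogenase gene (404, replicates 235 and 165). Of the 11 summits, 5 (45.5%) lay in introns of coding genes, against 49.7% of all peaks. CR44984, in an intron of the cell adhesion gene ed, had the summit farthest from any coding start of all 253, at 44283 bp (score 96.0, replicates 56.3 and 40.4).

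Long RNAs that span a microRNA hairpin on the same strand made up 37 annotated genes, and 10 of them had a peak near a start (27.0%, interval 13.8 to 44.1). Over all ncRNA genes 195 of 2548 had one (7.65%, interval 6.65 to 8.75). The coding exclusion lowers the share over all ncRNA genes more than that of the hosts. With summits near coding starts counted too, the numbers were 11 of the 37 and 378 of 2548 (14.8%). The group of 37 was chosen after its values were seen. The strongest was CR31044, which spans mir-279 and mir-996, microRNAs that restrict the number of carbon dioxide sensing neurons. Its score was 1110 (replicates 646 and 463), with the summit 111 bp upstream of the start, 1134 bp before mir-279. CR43626 with mir-282 followed at 360 (replicates 202 and 156), then CR45345 with mir-375 at 275 (160 and 109). CR43650, with the growth and Wnt pathway regulator mir-8, had a peak of 273 at 750 bp upstream (164 and 108). A second peak of 207 lay 1406 bp downstream of its 5' end (114 and 87.0), 931 bp before the hairpin.

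The remaining hosts had lower scores. CR43857 with mir-275 had 94.0 (replicates 51.9 and 37.9), CR43651 with mir-14 had 88.9 (33.6 and 43.8), and CR44206 with mir-184 had 84.3 (49.7 and 31.4). CR43314 with mir-bft had 91.1, with 43.4 in replicate 2 and no replicate 1 summit within 100 bp. CR43836 with mir-31b had only a score of 5.30 and no summit within 100 bp in either replicate.

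The bantam locus held several of these peaks. CR43334 is the primary transcript region of bantam, a microRNA that promotes growth and blocks apoptosis. The conservative list had 13 peaks in this gene and the 3000 bp flanking each end, and 5 of those were at RNA starts only. At the 5' end of CR43334, 1 peak lay 492 bp upstream (score 142, replicates 97.8 and 45.4) and another 267 bp upstream (14.2). Around the hairpin mir-ban, peaks lay 611 bp upstream (57.8, replicates 32.3 and 30.4), 509 bp downstream (175, replicates 104 and 70.8) and 709 bp downstream (4.54). The peaks of 14.2 and 4.54 had no summit within 100 bp in either replicate. The highest peak of the locus, with a score of 441, lay past the 3' end and away from any RNA start, and others of up to 384 lay in the body of CR43334.

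**Figure D3:**
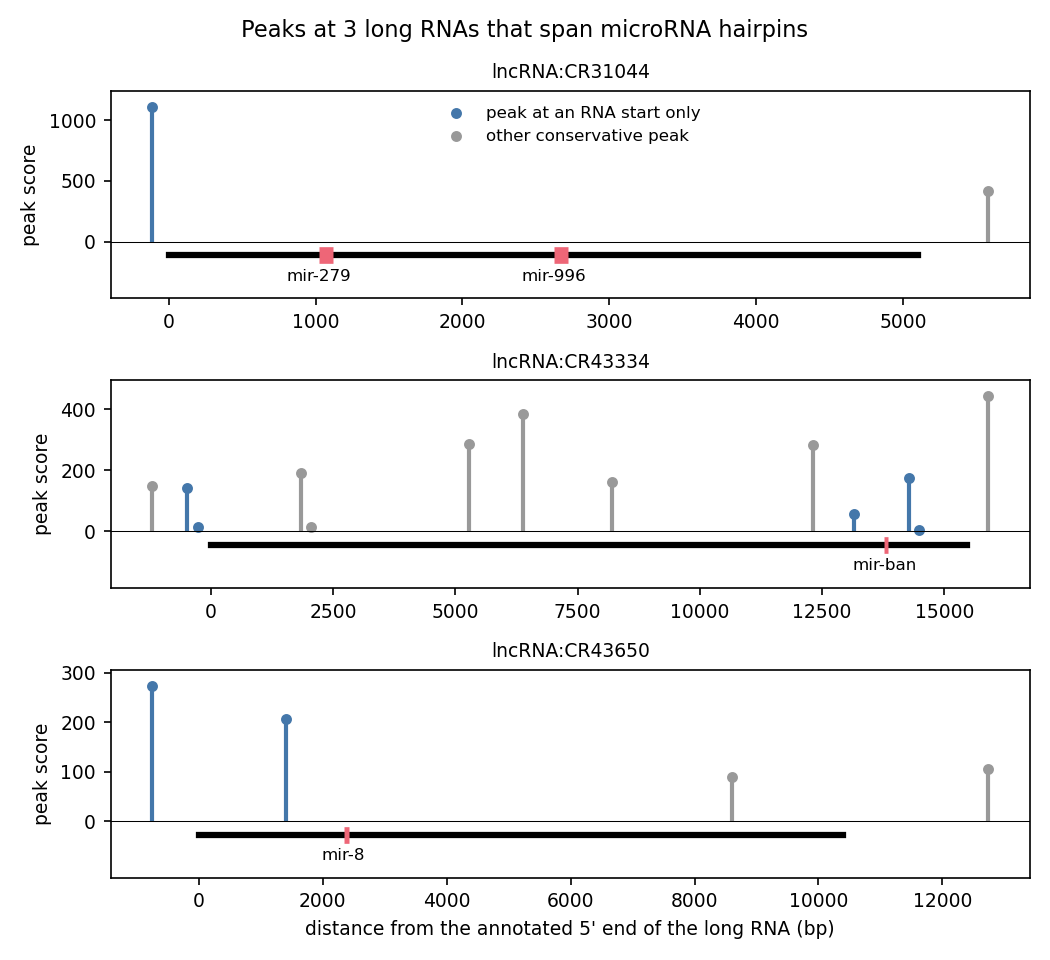
Conservative peaks at 3 long RNAs that span microRNA hairpins, by distance from the annotated 5' end (bp) and score, with the RNA as a black bar and the hairpins in red. Blue peaks lie at RNA starts only and grey ones are other peaks of the list, and CR31044 has a peak of 1110 just upstream while CR43334 has 13 peaks within the gene and the 3000 bp flanking each end.

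Among peaks whose nearest start was a hairpin, mir-9377 in an intron of Tis11 stood highest, with a score of 569 (replicates 326 and 240). The next distinct loci were mir-ban at 175 and mir-34 at 142 (replicates 87.5 and 54.4). The mir-34 summit lay 174 bp upstream of the hairpin and also within 1000 bp of mir-277, in the same cluster. The ageing-related mir-34 and the metabolic regulator mir-277 lie in CR43459, whose own start had no peak within 1000 bp. The hairpins mir-iab-8 and mir-iab-4 of the bithorax complex lie on opposite strands of the same sequence, and a single summit 848 and 915 bp from their starts had a score of 88.3 (41.8 and 47.6). The others ranged from 93.9 at mir-92b, in the 3' UTR of jigr1, to 141 at mir-2491. In between were mir-308, mir-375, mir-9378, mir-275, mir-965 and mir-2282.

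All 5 snRNA peaks lay within 250 bp of the start, 4 of them downstream of it. Small nuclear RNA genes with such a summit numbered 6 of 32 (18.8%, interval 7.21 to 36.4), since U6:96Ab shares the peak of U6:96Ac. That interval includes the share over all ncRNA genes, 195 of 2548 (7.65%). The U6:96Ac peak had a score of 208 (replicates 131 and 77.6), with its summit 126 bp upstream. U6 encodes the catalytic snRNA of the spliceosome. U1:95Ca, for the RNA that reads the 5' splice site, had 167 (replicates 93.9 and 81.8) with the summit 107 bp downstream. The gene of 7SKa, an RNA that holds back the elongation factor P-TEFb, had 139, with 48.4 in replicate 1 and 80.3 in replicate 2. U5:63BC had 82.3 with 50.8 in replicate 2 and no replicate 1 summit within 100 bp, and U4:39B had 81.6 (46.6 and 34.7). The U6, U1, U5 and U4 genes are members of multicopy families, so the placing of reads between copies is uncertain.

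The tRNA peaks had the lowest median score of the 5 classes. Their median distance from the start was 578 bp, against 462 bp for all 253, and their median signed position was 416 bp upstream. Within 250 bp lay 2 of 15 (13.3%, interval 1.66 to 40.5), an interval that includes the 28.5% of all 253. None was in the top 25.0% of the list. The highest were at Gln-TTG-2-1 (score 185, replicates 78.9 and 103) and Thr-AGT-1-1 (184, replicates 115 and 69.9). Gly-GCC-1-6 followed (162, replicates 75.2 and 81.4), then Ala-AGC-2-1 (135, replicates 94.2 and 41.6). These 4 were the tRNA peaks present in both replicates' own lists, and no replicate was higher at all of them. Glu-CTC-3-1 (130, replicates 83.6 and 44.3) and Trp-CCA-2-1 (98.5, replicates 49.7 and 49.3) came next, and the lower ones went down to 11.9 at Ile-AAT-1-9. The peak at Cys-GCA-1-3 (70.3, replicates 32.1 and 34.7) lay within 1000 bp of 5 tRNA genes. In all 19 of 290 tRNA genes had such a summit (6.55%, interval 3.99 to 10.04), against 7.65% of ncRNA genes. Of the 15 peaks, 8 (53.3%) lay in introns of coding genes, against 49.7% of all peaks. Near-identical tRNA copies make read placement uncertain here too.

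The 5 peaks at genes of the snoRNA class were all over 400 bp from the snoRNA start. Their scores were 202 at abba-a (replicates 123 and 74.0), 147 at Or-CD4 (63.4 and 86.2), 131 at Or-CD13 (75.2 and 51.7) and 96.8 at Or-CD14 (63.8 and 39.0). The fifth, at Psi28S-3436b, had 2.58 and no summit within 100 bp in either replicate. The peak at Or-ACA9, counted with the ncRNA class, lay 240 bp upstream of its start (120, replicates 80.1 and 39.2). In all 9 of 269 snoRNA genes had such a summit (3.35%, interval 1.54 to 6.26), against 7.65% of ncRNA genes. With summits near coding starts counted too, the numbers were 49 of 269 (18.2%), against 14.8% of ncRNA genes. Of 99 rRNA genes 0 had such a summit. The upper exact 95% bound for rRNA genes, 3.66%, takes array copies as independent, which they are not.

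Some well-known RNAs had such a peak and others did not. From a list of 27 long RNAs and microRNAs studied in flies, 25 were matched by name, 5 had a peak at RNA starts only within 1000 bp, and 20 did not. Over all genes of these classes the share with such a peak was 7.65% for ncRNA genes and 6.92% for hairpins. The 5 were the hairpins mir-ban, mir-iab-4, mir-iab-8, mir-8 and mir-14, and mir-iab-4 and mir-iab-8 share a summit. The nearest conservative summit was 1434 bp from roX2, the dosage compensation RNA, 1364 bp from bxd, of the bithorax complex, and 1528 bp from acal. It was 5954 bp from roX1, 12395 bp from let7C and 7368 bp from mir-1. For mir-279, inside CR31044, it was 1134 bp. For the others it lay from 3893 bp (iab8) to 26018 bp (Hsromega) away, namely for noe, cherub, CRG, yar, mir-let7, mir-7, mir-9a, mir-124, mir-184, mir-278 and mir-309. The names bft, as a long RNA, and mir-263a were not matched. Outside that list, and named after its value was seen, flam, the source locus of the piRNAs that silence gypsy-type elements in the ovary, had a summit 217 bp upstream of its start with a score of 114 (replicates 62.0 and 47.6).

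The summits were spread around RNA starts more widely than around coding starts. Upstream summits made up 129 of 253 (51.0%, interval 44.7 to 57.3), against 78.1% (interval 76.6 to 79.5) of the peaks at coding starts. Within 250 bp of the start lay 72 (28.5%, interval 23.0 to 34.4), against 62.1% at coding starts (interval 60.4 to 63.8). The median distance was 462 bp at RNA starts and 172 bp at coding starts. The rule keeps any summit within 1000 bp on either side of an RNA start. The 2 shares and the median at RNA starts are near those of summits placed evenly in that window. The bin from 400 to 600 bp downstream held 47 summits (18.6%), against 36 in the 200 bp just upstream. Of the 124 summits downstream of a start, 69 lay inside the RNA gene and 55 past its 3' end, since the median gene length was 573 bp. In the 400 to 600 bp bin, 23 lay inside and 24 past the end. Some of the 129 upstream summits also lay inside the RNA gene, upstream of an internal transcript start. Examples were those at CR44810 and CR43626 and the second peak of CR43650. Whether annotated RNA starts are transcription starts was not tested.

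**Figure D4:**
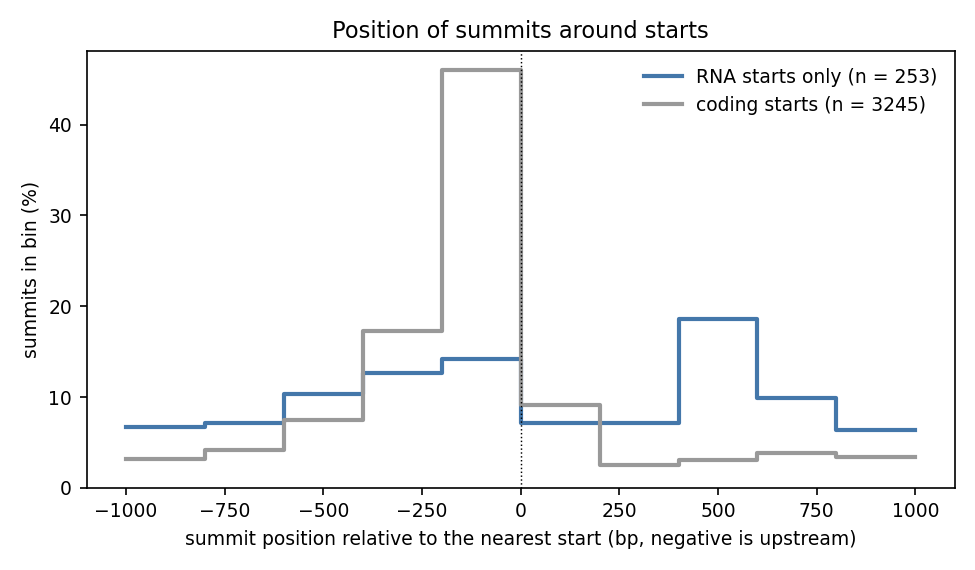
Share of summits (%) in 200 bp bins around the nearest start, for the 253 peaks at RNA starts only and the 3245 peaks at coding starts. Coding-start summits gather just upstream, while those at RNA starts spread out and have a second high bin 400 to 600 bp downstream (18.6%).

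Most of these peaks stood in sequence between coding genes. Outside coding genes lay 171 (67.6%, interval 61.4 to 73.3), against 41.9% of all peaks, and 79 (31.2%) lay in introns of coding genes, against 49.7%. The distance rule itself removes summits near coding starts, which bears on these shares. Of the peaks within 1000 bp of a coding start, 51.4% lay outside coding genes and 33.6% in their introns. Peaks far from every start also lie more than 1000 bp from coding starts. Of those, 30.6% lay outside coding genes and 66.9% in their introns. What sets these shares was not tested. The nearest coding start was a median of 3778 bp away, and 11 summits were more than 20000 bp from one. Another conservative summit lay within 5000 bp of 188 (74.3%, interval 68.5 to 79.6), against 63.8% of all peaks. Of 219 nearest RNA genes, 29 had several of the peaks, and CR44366 had 3 (scores 391, 251 and 181), as had CR31840 (349, 133 and 117). By arm, 2L held 71 (28.1%) against 17.9% of all peaks and 22.8% of the RNA genes, and X held 36 (14.2%) against 20.8% and 12.4%. The other 3 large arms held 44 to 54 each.

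Of the 531 peaks with an RNA start within 1000 bp, 278 (52.4%) were left out because a coding start was within 1000 bp too. The nearest cases on the kept side were 7SKa, 1003 bp from the start of CG1142 with a score of 139, and peaks 1034 and 1035 bp from the starts of ptc (11.8) and CG8517 (11.9). Just outside were peaks 996 bp from sau (167), 983 bp from Ncoa6 (225) and 960 bp from Mob2 (97.5). On the RNA side the farthest kept summits were at 1000, 985 and 977 bp (98.0, 135 and 150), and the first ones outside were at 1004, 1014 and 1026 bp (123, 104 and 484).

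Sequence words at the summits had shares close to those of the whole list. In all 13 words were searched on both strands within 50 bp of the summit, and different words can overlap. TAATCC was in 10 of 253 windows (3.95%, interval 1.91 to 7.15), against 3.81% of all peaks. Of the 10, 6 lay in introns of coding genes, against 31.2% of the 253 and 49.7% of all peaks. The 6 included CR45997 in mbl, CR44331 in puc (score 298, replicates 180 and 126) and the snoRNA abba-a. CR45539 (111, replicates 64.0 and 46.2) lay between genes. TAAGCC, a related core, was in 8 (3.16%) against 4.37%, and TAATTA, the core of many other homeodomains, in 32 (12.6%) against 10.7%. GATAA, the GATA factor core, was in 60 (23.7%) against 23.3%, TATAAA in 62 (24.5%) against 23.6%, and GAGAG, the GAGA factor element, in 27 (10.7%) against 8.76%.

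Some words were absent. TATCGATA, the DNA replication-related element, was in 0 of 253 windows against 1.42% of all peaks and 2.59% at coding starts. GGTCACAC, core promoter motif 1, was in 0 against 0.733%, and the E-box CAGCTG in 0 against 2.89%. Peaks far from every start (3326 peaks) held TATCGATA in 0.391%, GGTCACAC in 0.271% and CAGCTG in 2.07%. The upper exact 95% bound for a count of 0 in 253 was 1.45%. CACCTG, another E-box, was in 4 (1.58%) against 2.42%, TTCCCAA in 5 (1.98%) against 2.24%, and the repeat CACACACA in 1 (0.395%) against 1.08%. GGTTCGA, part of the internal B box of tRNA genes, was in 0 against 0.615%. The mean GC content of the windows was 32.3% ± 9.59 (SD over peaks, n = 253), against 33.3% in all peaks. No test was made of these shares.

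A small set of the peaks had very low scores. Scores below 30 belonged to 12 of the 253 (4.74%, interval 2.47 to 8.14), against 4.48% of all peaks. They were 8 at ncRNA genes, 2 at tRNA genes, 1 at a snoRNA gene and 1 at mir-ban. Of these 12, 11 had no ranked summit of either replicate within 100 bp, compared with 3 of the other 241, and the nearest replicate summits were a median of 192 and 182 bp away. Another conservative summit lay within 1000 bp of 11 of them, and 10 had the capped IDR score of 1000. Low-score peaks of the whole list were alike. No ranked summit of either replicate lay within 100 bp for 266 of 306 peaks below 30 (86.9%) and for 39 of 6518 others (0.598%). Of those 306, 305 had another conservative summit within 1000 bp. Counts over the 253 therefore hold 11 such peaks that neither replicate's ranked list places at the same summit. What made them was not tested.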

How the data were processed

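The series has 2 ChIP-seq libraries, biological replicates of 1 group. Per the labels, peak lists are on dm6; the authors deposited a ranked and an IDR-thresholded list for each replicate and further lists made from both. Aligner, caller, their versions and settings: not given in the sources used here. Every peak in a deposited list carries a strength score and a scaled IDR score capped at 1000 (at least 830 in thresholded lists). The deposited lists also give a −log10 q value per peak, used here to break ties and as an alternative ranking.

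Summits on the named chromosome arms were compared with every transcript start of Ensembl release 115. Hairpins were taken as pre_miRNA, and 481 gene records of mature miRNAs were left out as starts. A peak was assigned to the nearest RNA start. Replicate scores come from the ranked list of each replicate, at a summit within 100 bp. Intervals are exact Clopper-Pearson at 95% and cover counting only. They take peaks as independent, although some are neighbouring summits of overlapping peaks. The members, lists and words were chosen with earlier results of these data known. Named genes were the 6 highest peaks of each class (all where a class had at most 10) and any of the list of 27 RNAs, and the rule allowed further peaks of the smaller classes. Others were chosen after their values were seen. No test was made, as there is 1 group and members are not replicates. Functions were tested on simulated data. Alternatives covered the peak list, each replicate alone, IDR, distances, starts and windows. Python 3.11.15, numpy 2.4.6, pandas 2.3.3, scipy 1.17.1 and matplotlib 3.10.9 were used.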

Additional observations from a re-analysis of the deposited data

Results flagged for a closer look

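On the named arms, 123 peaks ranked from the replicate pair reached the IDR minimum of 830 and were absent from the conservative list, and 6 of them lay at RNA starts only, 5 of these on 3R. They are a signal in data outside the counts of the report. CR45643, whose upstream peak was the strongest at an RNA start, had 2 of them, 899 bp (score 984, replicates 531 and 459) and 272 bp (137, replicates 72.5 and 69.3) downstream of its start. The heat shock RNA Hsromega had one 191 bp downstream of its start (229, replicates 112 and 130), although its nearest conservative summit was 26018 bp away. The others were at snoRNA:Me18S-G1358a (341), CR44034 (132) and tRNA:Glu-TTC-1-5 (73.0). Both replicates' ranked lists had a summit within 100 bp for each. No label or file names the filter that removed these peaks.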

How the results depend on the processing

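The shares of peaks above the list median (47.1 to 55.3% over 12 alternatives) and in both replicates' lists (51.0 to 58.7% over 10) stayed inside the main 95% intervals. The distance to the RNA start set the counts. Within 500 bp there were 141 peaks (ncRNA 122, tRNA 5, snoRNA 2, hairpins 7), of which 57.4% were upstream. Within 2000 bp there were 461 (ncRNA 393, tRNA 26, snoRNA 9, hairpins 26, rRNA 1). With coding starts only over 500 bp away, snoRNA peaks numbered 8. With mature miRNA records counted as starts, an alternative chosen after seeing the data, hairpin peaks numbered 6 and the total stayed 253. TAATCC rose to 11.1% in whole deposited peaks, against 9.63% over all peaks; the wider window alone adds sequence. In the lists of single replicates the total was 182 to 194, with 7 to 8 tRNA, 3 snRNA and 9 hairpin peaks. No paired analysis was possible because the series holds 1 group and no test was made. Read depth is unknown, so differences in how deeply the replicates were sequenced cannot be weighed, and classes of 5 peaks give wide intervals.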
